A study of Caenorhabditis elegans with 2 samples.

Results

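Most of the genes described here encode factors that start, extend or end protein synthesis on cytosolic ribosomes of Caenorhabditis elegans. The question was where ALY-2 tagged with eGFP had been recovered with chromatin at or near these genes. They were taken by name: every protein-coding gene of Ensembl release 115 whose name begins with eif-, eef-, ife-, ifg-, iff-, ifet-, erfa- or etf-. The rule found 42 of 19973 protein-coding genes, none of them with a name in etf-, and it used no measured value. It also took in eif-4A3, an exon junction helicase gene, and ifet-1, whose product represses translation. Factors with other names, such as inf-1 (eIF4A) and egl-45 (eIF3 subunit a), were left out. The samples were 2 biological replicates of chromatin immunoprecipitation with sequencing in whole L1 larvae of mixed sex, all of strain OP217, genotype unc-119(ed3) III; ddIs172. Both replicates therefore carried the unc-119 mutation and the ddIs172 insertion for ALY-2 and eGFP, and no other genotype, stage or treatment was available for comparison. The antibody label reads aly-2 while the description speaks of eGFP-aly-2, so whether the tag or the protein was targeted is unclear. The promoter that drives the fusion is not named in the sources, and whole larvae do not show which cells gave a peak.

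Translation begins when eIF2 brings the initiator tRNA to the small ribosomal subunit, eIF3 holds that subunit ready for an mRNA, and eIF4E with its scaffold eIF4G binds the mRNA's cap. After the start codon has been found and the large subunit has joined, eEF1A delivers each aminoacyl-tRNA, eEF2 moves the ribosome along, and release factors end synthesis at the stop codon. ALY-2 is one of the worm's REF/ALY proteins, a family best known for escorting spliced mRNA out of the nucleus and for binding RNA while it is still being made.

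A summit in the final peak list lay in the promoter window of 15 of the 42 translation factor genes. The window began 1000 bp before the annotated 5′ end of a gene and closed 200 bp after it. The 15 genes were 35.7% of the family (exact 95% interval 21.6 to 52.0%), against 5.58% of all coding genes. When the final list was replaced by a replicate's own 1446 strongest peaks, the promoter count was 11 genes (26.2%) in replicate 1 and 16 genes (38.1%) in replicate 2, or 32.1% ± 8.42 (SD, n = 2). The corresponding shares of all coding genes were 5.28% and 5.08%, so the gap between the family and all coding genes exceeded the spread between replicates. The interval covers counting error over genes only, and neighbouring genes can share a summit.

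Gene ends and gene bodies held fewer of the summits than promoters did, but the windows differ in length. The promoter window ran from 1000 bp before to 200 bp after the 5′ end, the 3′ end window covered 500 bp, and gene bodies vary. The counts therefore do not compare summits per base. A final summit lay in the 500 bp past the annotated 3′ end of 6 members (14.3%, exact 95% interval 5.43 to 28.5%), against 2.52% of all coding genes. Each replicate's 1446 strongest peaks also gave 6 members at the 3′ end, but not the same 6. Replicate 1 held eif-2alpha (rank 1086, against 16150 in replicate 2) and lacked eif-2A (rank 4060, against 618 in replicate 2). Inside gene bodies, 3 members (7.14%, exact 95% interval 1.5 to 19.5%) had a final summit, against 2.32% of coding genes, a share inside that interval. At eef-1B.1 and eef-2, both among the 3, a body summit was also the promoter window's summit. Counting any of these regions, 19 members (45.2%, 29.8 to 61.3%) had a final summit, against 9.10%, and the replicates gave 15 and 20 members. In the pooled list, which is longer and includes weaker peaks, 28 members (66.7%) had a promoter summit against 24.9% of coding genes, and 37 (88.1%) had one in any region against 43.9%. In the whole replicate lists, promoter summits were found at 33 members (78.6%) in replicate 1, against 34.9% of coding genes. Replicate 2 gave 32 members (76.2%), against 33.7%.

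**Figure D1:**
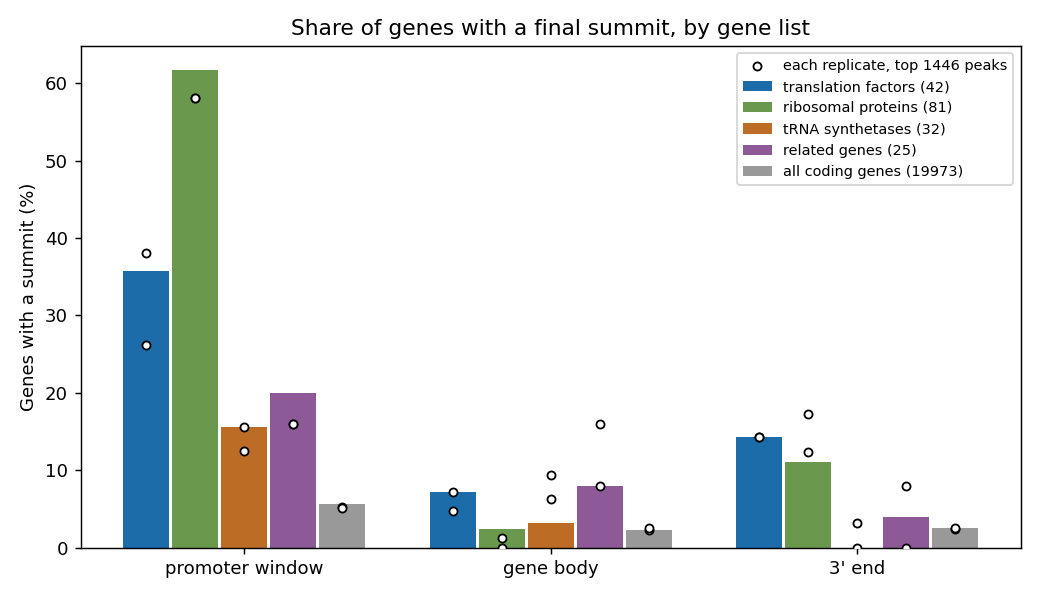
Percentage of genes with a final summit (y axis) in the promoter window, gene body or 3′ end (x axis), with 1 bar per gene list and open circles for each replicate's 1446 strongest peaks. In the promoter window the translation factor genes reached 35.7%, below the ribosomal protein genes at 61.7% and above all coding genes at 5.58%.

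Sequences around promoter summits are shown for 5 members, as examples of where in a promoter the tagged protein was recovered. They are not the 5 strongest peaks. In each the summit base lay outside every annotated gene and the stretch was free of annotated transcribed bases. They come from the WBcel235 genome (ce11 coordinates). Each reads 5′ to 3′ in the direction of the gene, covers at most 200 bases around the summit, and is in lower case apart from matches to GAGAGA or TATAAA on either strand, in capitals. The iff-2 stretch (chrII:8561368-8561507, minus strand) ends 1 base before the 5′ end, with the summit at base 100. The eef-1A.1 stretch (chrIII:6972086-6972187, minus strand) lies between that gene and rfc-4, with the summit also at base 100. The eif-3.B stretch (chrII:14795046-14795245, plus strand) has its summit at base 101 and holds 1 TATAAA that overlaps its own reverse complement. The eef-1A.2 stretch (chrX:7823216-7823384, plus strand) and the eef-1G stretch (chrV:10965564-10965718, plus strand) have their summits at base 101.
iff-2: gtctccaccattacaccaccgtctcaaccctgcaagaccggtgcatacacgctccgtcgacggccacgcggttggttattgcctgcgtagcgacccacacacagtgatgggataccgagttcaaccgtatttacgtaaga
eef-1A.1: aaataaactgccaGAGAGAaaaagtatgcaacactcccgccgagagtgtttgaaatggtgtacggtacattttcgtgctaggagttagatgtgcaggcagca
eif-3.B: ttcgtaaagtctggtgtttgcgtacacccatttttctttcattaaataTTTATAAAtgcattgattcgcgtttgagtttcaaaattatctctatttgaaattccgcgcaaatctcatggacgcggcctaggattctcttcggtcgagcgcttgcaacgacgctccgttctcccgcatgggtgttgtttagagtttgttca
eef-1A.2: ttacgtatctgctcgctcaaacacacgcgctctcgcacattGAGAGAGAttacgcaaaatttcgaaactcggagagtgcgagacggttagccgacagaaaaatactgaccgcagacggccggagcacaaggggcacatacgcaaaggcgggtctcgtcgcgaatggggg
eef-1G: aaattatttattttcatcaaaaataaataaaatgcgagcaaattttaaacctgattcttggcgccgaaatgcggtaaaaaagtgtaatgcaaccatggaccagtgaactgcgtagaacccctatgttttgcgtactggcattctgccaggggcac
The 5 stretches came from different chromosomes or far-apart loci, and no searched motif was present in all of them.

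Among elongation factor genes, every one of the 6 had a final summit in at least 1 region, against 9.10% of all coding genes. In the promoter window 5 of the 6 had one, against 5.58%. The signal is the value that the authors' peak caller gave each peak. Its scale is not stated, so values are compared within a list only, and rank 1 is the highest signal. The final promoter peak of eef-1A.1, which encodes the tRNA-delivering factor eEF1A (WBGene00001168), lay at chrIII:6971908-6972267 with a signal of 133 and rank 93 of 1446. Its replicate signals were 71.4 in replicate 1 (rank 80) and 59.4 in replicate 2 (rank 129), so it was among the strongest peaks of both. The summit lay 376 bp upstream of eef-1A.1 and 165 bp upstream of the divergent gene rfc-4, which encodes a replication factor C subunit. It was also in the window of the microRNA gene cel-mir-5549, so it cannot be given to eef-1A.1 alone. The second eEF1A gene, eef-1A.2 (WBGene00001169), had its promoter peak at chrX:7823136-7823495 with a signal of 81.2 (rank 336). That peak had a signal of 33.1 (rank 575) in replicate 1 and 53.1 (rank 190) in replicate 2, and its summit, 338 bp upstream, lay in no other coding gene's window.

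Both eEF1A genes also carried a final summit just past their 3′ ends. At eef-1A.2 the end peak, chrX:7825659-7826018, was stronger than the promoter peak, with a signal of 135 (rank 90) and replicate signals of 62.0 (rank 113) and 71.2 (rank 82). Its summit lay 70 bp past the annotated end and 572 bp past the stop codon, within an exon of the non-coding gene C54D2.14. At eef-1A.1 the end peak, chrIII:6969788-6970147, had a signal of 118 (rank 123) and replicate signals of 53.5 (rank 163) and 65.6 (rank 105). This summit lay 58 bp past the end, in coding sequence of F31E3.12, a gene on the opposite strand. The coding sequences of the pair, each 1389 bases long, are 94.0% identical. Every 36-base word in these 4 peaks nevertheless occurred once in the genome. A promoter summit together with a 3′ end summit in the final list was found at 3 of the 42 members, the third being eif-3.B. The share of all coding genes was 0.516%.

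The subunits of eEF1B, which reloads eEF1A with GTP, differed in where their summits lay. At eef-1G, the gamma subunit gene, the promoter peak (chrV:10965484-10965843) had a signal of 74.0 (rank 421) and replicate signals of 39.7 (rank 360) and 40.7 (rank 401). Its summit lay 55 bp upstream of eef-1G and 125 bp upstream of ctf-4, a replication gene on the other strand. At eef-1B.1 the summit, of the peak at chrIII:7973177-7973536, fell 29 bp inside the gene in its 5′ UTR, with a signal of 53.1 (rank 893). It also lay 360 bp upstream of aco-2, a mitochondrial aconitase gene, and within an exon of the non-coding gene F54H12.9. The replicates differed here, with a signal of 17.4 (rank 2573) in replicate 1 and 34.7 (rank 609) in replicate 2. The paralogue eef-1B.2 had no final promoter summit, its best pooled one having rank 2752, but a final peak of signal 89.3 (rank 253) lay past its 3′ end at chrIV:15039508-15039867. That peak had replicate signals of 45.4 (rank 266) and 51.7 (rank 207). Its summit was 137 bp past the end of eef-1B.2 and also 72 bp inside hrpu-1, an hnRNP U gene that starts 64 bp after eef-1B.2 ends, in an intron. An exon of the non-coding gene Y41E3.459 covered the same position.

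The gene for the translocation factor eEF2, eef-2, had final summits at both ends of its transcribed region. The first peak, chrI:9163410-9163769, had its summit 59 bp downstream of the 5′ end, in the 5′ UTR, and 324 bp upstream of the divergent gene clsp-1. Its signal was 110.0 (rank 149), with replicate signals of 67.0 (rank 95) and 51.5 (rank 209). The second, chrI:9166697-9167056, had a summit 75 bp before the 3′ end and 179 bp past the stop codon, in an annotated intron. It had a signal of 90.2 (rank 246) and replicate signals of 42.7 (rank 312) and 58.1 (rank 141). At eef-2 the promoter peak ranked higher in replicate 1 and the end peak in replicate 2, so their order was not stable between replicates, and the same held at eef-1A.1.

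**Figure D2:**
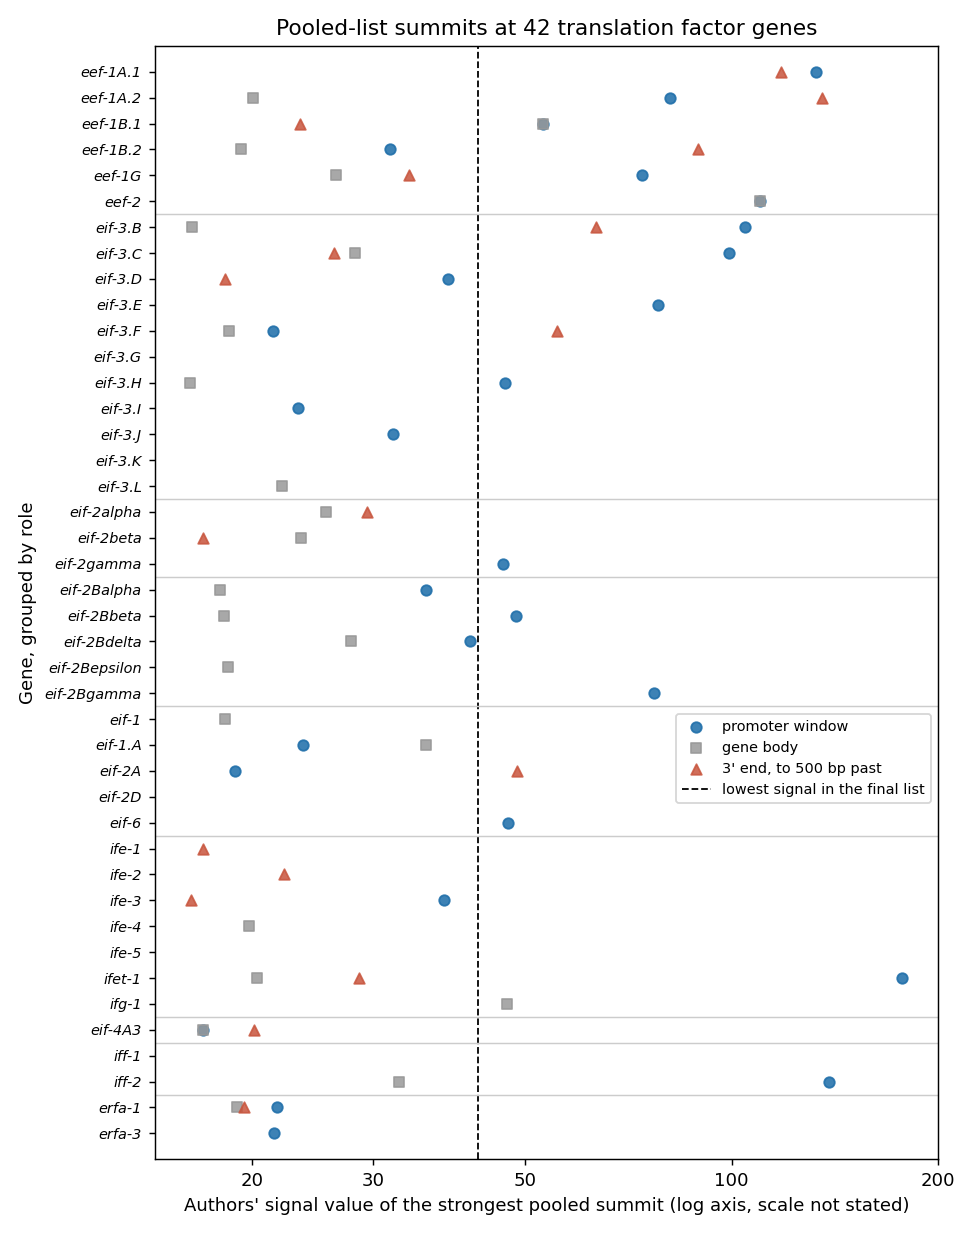
Authors' signal value of the strongest pooled summit (x axis, log) in the promoter window, gene body and 3′ end of each of the 42 genes (y axis, grouped by role), with a dashed line at 42.7, the lowest signal in the final list. A summit that lies in both the promoter window and the gene body is drawn as overlapping marks, all 6 elongation factor genes have a mark to the right of the line, and 5 genes have no mark.

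Among the 11 genes for subunits of eIF3, the scaffold on the small ribosomal subunit, 4 had a final promoter summit, 2 had a final 3′ end summit and 5 had either. The shares of all coding genes were 5.58%, 2.52% and, in any region, 9.10%. The strongest promoter peak was that of eif-3.B, at chrII:14794966-14795325, with a signal of 105 (rank 168), replicate signals of 54.3 (rank 155) and 51.0 (rank 214), and a summit 258 bp upstream. A second eif-3.B peak, chrII:14798101-14798460, had a signal of 63.4 (rank 617), with 27.3 (rank 900) in replicate 1 and 40.7 (rank 403) in replicate 2. Its summit lay 46 bp past the 3′ end and 191 bp upstream of tbc-20, which begins 236 bp after eif-3.B ends. Close behind the eif-3.B promoter, that of eif-3.C (chrI:9979738-9980097) had a signal of 99.1 (rank 195) and replicate signals of 54.3 (rank 154) and 43.8 (rank 342), with the summit 256 bp upstream. Neither promoter summit was in another coding gene's window, and both peaks were within the top 1446 of each replicate.

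The other eIF3 summits were shared with neighbours. The eif-3.E peak (chrI:10642329-10642688) had a signal of 78.0 (rank 371), replicate signals of 33.5 (rank 554) and 41.3 (rank 386), and a summit 228 bp upstream that also lay 520 bp upstream of B0511.17. The eif-3.H peak (chrI:4444331-4444690) had a signal of 46.7 (rank 1196) with replicate signals of 25.6 (rank 1048) and 27.6 (rank 1005). Its summit was 208 bp from eif-3.H and nearer, at 162 bp, to C41D11.3. At eif-3.F the final summit (peak chrII:9333968-9334327) lay 178 bp past the 3′ end, inside an intron of scp-1, the SCAP homologue gene that begins 43 bp after eif-3.F ends. It had a signal of 55.7 (rank 803) and replicate signals of 27.0 (rank 920) and 27.8 (rank 992), whereas the best pooled promoter summit of eif-3.F had rank 7378. Promoter summits in the pooled list alone were found at eif-3.D (rank 1784), eif-3.J (rank 2714) and eif-3.I (rank 5862). The gene eif-3.L had a pooled summit of rank 6828 in its body only, and eif-3.G and eif-3.K had no pooled summit in any region. In the replicate lists, eif-3.G had promoter summits of rank 2526 in replicate 1 and 15202 in replicate 2, and eif-3.K had a body summit of rank 25308 in replicate 2 alone.

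Of the 3 genes for eIF2, which carries the initiator tRNA, only eif-2gamma had a final summit in any region (all coding genes, 9.10%). That peak, chrI:2312986-2313345, had a signal of 46.4, the lowest of the 15 promoter peaks (rank 1208), and lay 105 bp upstream in no other coding window. Its replicate signals were 15.1 (rank 3550) and 34.3 (rank 625), so it was outside the 1446 strongest in replicate 1. The alpha subunit gene eif-2alpha, whose product is phosphorylated when initiation is held back under stress, had pooled summits in its body (rank 4633) and past its 3′ end (rank 3292) but not in its promoter window. The same was true of eif-2beta, with ranks 5718 and 13781. The best summit past the 3′ end of eif-2alpha had rank 1086 in replicate 1 and rank 16150 in replicate 2.

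Genes for eIF2B, the factor that exchanges GDP for GTP on eIF2, numbered 5. Of these, 2 had a final promoter summit, against 5.58% of all coding genes. The eif-2Bbeta peak (chrI:11893717-11894076) had a signal of 48.4 (rank 1109), with replicate signals of 17.9 (rank 2402) and 28.9 (rank 914). Its summit was 170 bp upstream of eif-2Bbeta and nearer, at 34 bp, to Y47H9C.8. The eif-2Bgamma peak (chrII:6968382-6968741) had a signal of 76.9 (rank 381) and replicate signals of 45.8 (rank 256) and 38.6 (rank 458). Its summit was 914 bp upstream, the farthest of all members. The overlapping replicate 2 peak had its summit 199 bp away, outside the final peak. The final summit lay within an intron of C15F1.5 and an exon of the non-coding gene C15F1.14, and in the windows of sup-39 and mir-1831. Of the 36-base words in this peak, 71.4% occurred once in the genome, whereas every such word did in the other 22 peaks at these genes, so reads there may belong elsewhere. Below the final list came the promoters of eif-2Bdelta (signal 41.6, pooled rank 1525, 126 bp upstream), where the replicate ranks were 3226 and 908, and of eif-2Balpha (pooled rank 2125). The remaining subunit gene, eif-2Bepsilon, had a pooled summit of rank 10951 in its body only.

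Factors for start codon choice and subunit joining had 2 final summits among 5 genes, against 9.10% of all coding genes with one. The gene eif-6, whose product keeps the large ribosomal subunit from joining early, had a promoter peak at chrI:12968482-12968841 with a signal of 47.2 (rank 1173), a summit 284 bp upstream, and replicate signals of 17.9 (rank 2394) and 27.4 (rank 1020). This summit also lay 382 bp upstream of pbs-2, a proteasome subunit gene. At eif-2A the final summit (peak chrII:10419247-10419606) lay 190 bp past the 3′ end, in coding sequence of frpr-21 on the opposite strand. Its signal was 48.7 (rank 1092), and the replicate ranks differed most here, with 14.3 (rank 4060) in replicate 1 and 34.4 (rank 618) in replicate 2. The best pooled promoter summit of eif-2A had rank 10359. The genes eif-1.A (pooled rank 2138 in the body and 5594 in the promoter) and eif-1 (rank 11266, in the body) had no final summit, and eif-2D had no pooled summit.

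The strongest peak at any member lay upstream of ifet-1, whose product binds eIF4E and represses translation of germline mRNAs. This peak, chrIII:4475487-4475846, had a signal of 177 (rank 33) and replicate signals of 82.0 (rank 52) and 96.4 (rank 32). Its summit lay 517 bp upstream of ifet-1 but 251 bp upstream of the divergent ribosomal protein gene rps-1, and within an exon of the non-coding gene F56F3.10. The peak was therefore nearer to a ribosomal protein gene than to the member it was counted for. The eIF4G gene ifg-1 had its final summit (peak chrII:8221475-8221834) in its annotated 3′ UTR, 741 bp before the 3′ end and 731 bp upstream of dab-1. Its signal was 47.0 (rank 1183), and it was the only summit at a member outside the 1446 strongest of replicate 2, with 34.3 (rank 514) in replicate 1 and 18.0 (rank 2963) in replicate 2. The 5 genes for the cap-binding protein eIF4E, ife-1 to ife-5, had no final summit, where 9.10% of all coding genes had one. At that share, 5 genes are too few to show a lack. The promoter of ife-3 came nearest (pooled rank 1841, 324 bp upstream), with replicate ranks of 1731 and 14304, whereas ife-1, ife-2 and ife-4 had only pooled summits of ranks 13831, 6690 and 9077 at an end or in the body, and ife-5 had none.

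The pair of eIF5A genes differed. The somatic gene iff-2 had a promoter peak at chrII:8561228-8561587 with a signal of 138 (rank 85), the second highest among members, and replicate signals of 78.3 (rank 61) and 61.9 (rank 118). Its summit lay 41 bp upstream of iff-2, 453 bp before the start codon, and also in the windows of F54C9.14 and the snoRNA gene F54C9.12. The germline gene iff-1 had no pooled summit in any region. Their coding sequences, of 585 bases for iff-1 and 483 for iff-2, matched at 78.7% of aligned bases.

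Release factor genes and the helicase gene of the exon junction complex had weak peaks only. The promoter summits of erfa-1 and erfa-3, which encode eRF1 and eRF3, had pooled ranks of 7083 and 7330, with signals of 21.8 and 21.5. In the erfa-3 window a summit was called in replicate 2 (rank 2904) and none in replicate 1, and that at erfa-1 had rank 6656 in replicate 1 and 21762 in replicate 2. The promoter of eif-4A3, whose product joins spliced mRNA upstream of exon junctions, had a pooled rank of 13787. No final summit lay at any of these 3 genes, where 9.10% of all coding genes had one. At that share, 3 genes are too few to show a lack.

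The peaks of all 23 distinct final summits at the members overlapped a peak in both replicate lists by at least 1 bp. The same held for 1442 of all 1446 final peaks. Where several replicate peaks overlapped, the strongest was taken, so a match does not mean the same summit. The ranks of the 23 summits were not equally stable. Within the 1446 strongest of both replicates were 17 of them (73.9%), against 60.7% of all final peaks. Replicate 1 held 18 (78.3%) in its upper 1446 and replicate 2 held 22 (95.7%), where all final peaks gave 78.4% and 79.1%. Counting promoters, 11 members were in the upper 1446 of both replicates. A further 5 were there in replicate 2 alone, namely eef-1B.1, eif-2Bbeta, eif-2Bdelta, eif-2gamma and eif-6, and none in replicate 1 alone. Strong promoter peaks at those 5 genes therefore rest on replicate 2. Summits moved by a median of 18 bp between the final list and replicate 1 and by 14 bp for replicate 2, and by up to 199 bp at eif-2Bgamma.

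**Figure D3:**
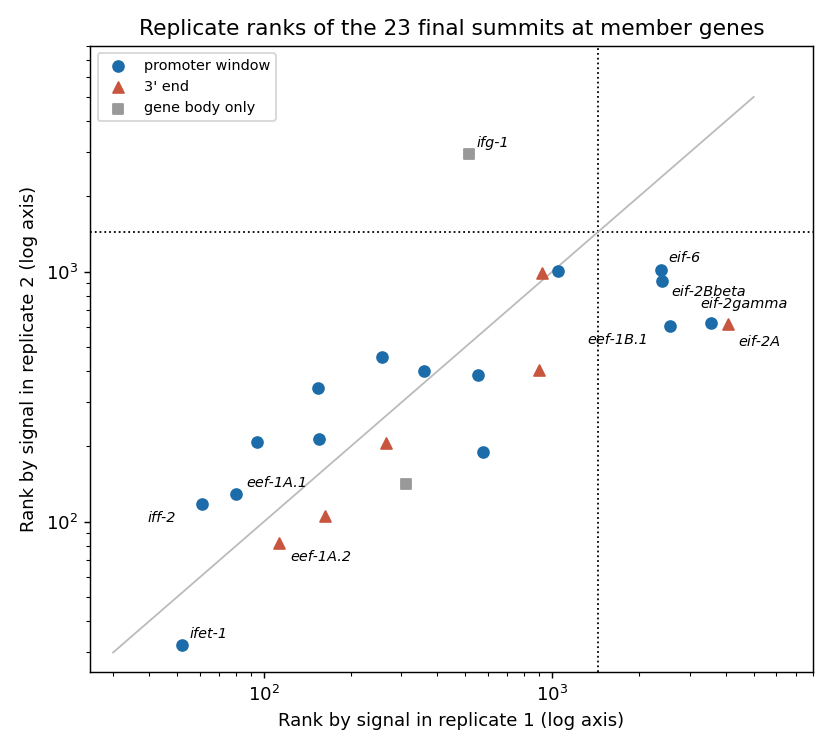
Rank by signal in replicate 1 (x axis, log) against rank in replicate 2 (y axis, log) for the 23 final summits at member genes, with dotted lines at rank 1446 and a grey line of equal rank. Points for eef-1B.1, eif-2A, eif-2Bbeta, eif-2gamma and eif-6 lie right of the vertical line, ifg-1 lies above the horizontal line, and the other 17 lie within both.

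The 15 promoter summits had signals from 46.4 to 177 with a median of 78.0, against a median of 58.8 over all final peaks. Of the 15, 10 lay above that median. All final peaks include those outside promoters, and the signals of promoter summits at all coding genes were not summarised. Upstream of the annotated 5′ end were 13 of the 15, with a median position of -228 bp and a range from -914 to 59 bp. Coding genes as a whole had a median of -226 bp, so the summits at translation factor genes lay at the common distance. Measured from the start codon, the median was -258 bp. Using only the upper 50% of final peaks left 10 of the 42 members with a promoter summit, against 2.93% of coding genes.

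**Figure D4:**
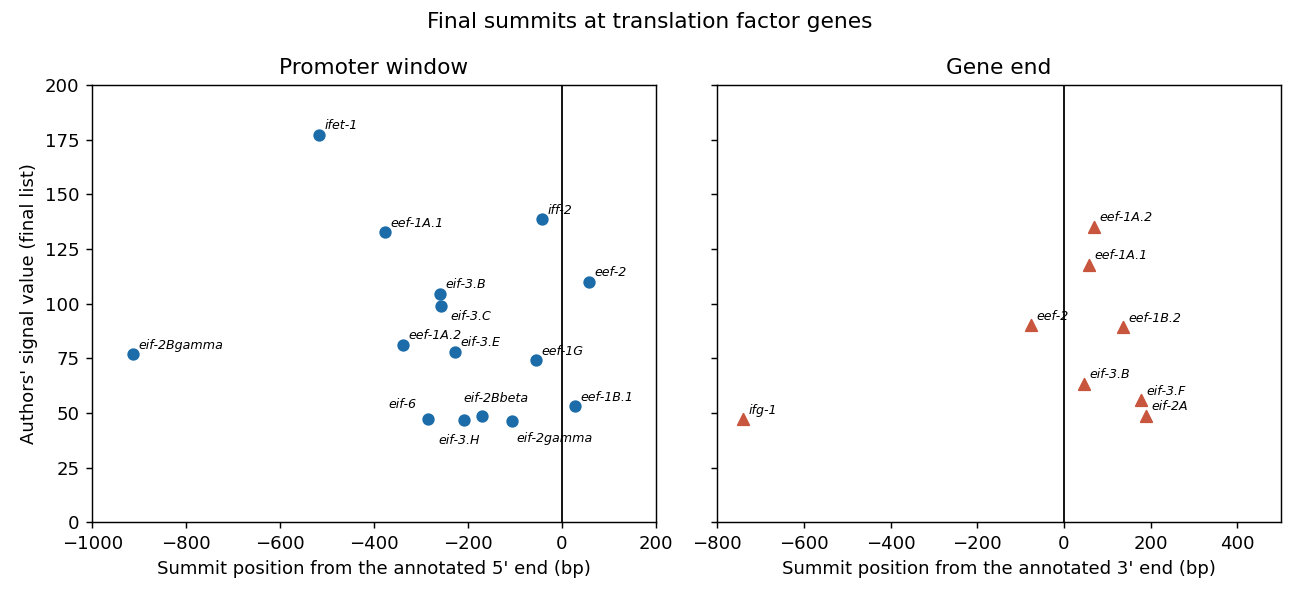
Authors' signal in the final list (y axis) against summit position in bp from the annotated 5′ end for the 15 promoter summits (left) and from the annotated 3′ end for the 6 summits past gene ends and those late in eef-2 and ifg-1 (right). Most promoter summits lie between 100 and 400 bp upstream, and the 6 summits past gene ends lie 46 to 190 bp beyond them.

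Shared windows limit how many of these summits can be given to a translation factor gene. In 10 of the 15 promoters the summit also lay in the window of at least 1 other coding gene. The 5 that did not were eef-1A.2, eif-2Bgamma, eif-2gamma, eif-3.B and eif-3.C. They were 5 of the 42 members, against 2.57% of coding genes counted in that way. Among all coding genes, 1115 had a final promoter summit and 514 had one in no other coding gene's window. Windows of non-coding genes were not counted, and the eif-2Bgamma summit, 914 bp upstream, lay in those of sup-39 and mir-1831. When each summit was given to the nearest 5′ end of a coding gene alone, 11 of the 42 members remained, against 4.0% of coding genes. Those lost to neighbours were eef-1A.1, eif-2Bbeta, eif-3.H and ifet-1. A divergent neighbour within 1000 bp was present at 23 members, of which 10 had a final promoter summit, against 12.1% of coding genes so arranged. Of 8 members with a gene on the same strand ending within 500 bp upstream, 3 had one, against 6.21%, and of the remaining 11 members 2 had one (eef-1A.2 and eif-3.B), against 2.97%. In each arrangement the members' share was above that of all coding genes arranged alike, but no interval was computed. The shares of 3 of 8 and 2 of 11 members rest on few genes. Whether arrangement accounts for the family's higher share was not tested.

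Short motifs were counted on both strands in the 200 bp around the 15 promoter summits. TTTCAG, the letters of the worm splice acceptor, was found at 7 (46.7%), against 24.2% of all final summits and 33.0% of weaker pooled summits. GAGAGA was at 4 (26.7%), against 31.0% of final summits and 16.8% of weaker ones, and TATAAA at 2 (13.3%), against 18.1% and 21.7%. GGGCGG was at 1 (6.67%), against 5.12%, and TTTCGCGC at 1 (6.67%), against 2.56%. CACGTG was in none of these 15 windows, against 4.63% of all final summits, TTTGGCGC in none, against 1.11%, and TGACGT in none, against 6.64%. The windows' GC content had a median of 41.5%, from 28.0 to 56.0%, against 39.5% for all final summits. In the 200 bp before the 5′ ends of all 42 members, TATAAA was found at 19 (45.2%) against 30.4% of coding genes, and TTTCAG at 20 (47.6%) against 36.8%. In the same stretches GAGAGA was found at 4 (9.52%) against 16.3%, GGGCGG at 1 (2.38%) against 5.97%, and CACGTG at 0 against 4.22%. TTTCGCGC was found at 3 (7.14%) against 0.901%, TTTGGCGC at 1 (2.38%) against 0.681%, and TGACGT at 3 (7.14%) against 6.90%. With 15 windows, 1 match more or less moves each share by several percentage points, and these shares are descriptions only. The final and weaker pooled summits set beside them include those outside promoters.

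Genes with other names that work with these factors, or encode such factors themselves, were examined as a separate list. Of 33 names listed, 25 matched a coding gene outside the name rule, and 5 of those (20%, exact 95% interval 6.83 to 40.7%) had a final promoter summit, against 5.58% of all coding genes. The strongest was at drr-2, an eIF4H homologue, with a signal of 152 (rank 62), shared with set-16. It was followed by gcn-1, a partner of an eIF2 kinase (signal 104, rank 173), and pab-1 (56.3, rank 788), a poly(A)-binding protein gene that shares its summit with rpl-30. After these came the kinase gene gcn-2 (48.5, rank 1106), whose summit is shared with Y81G3A.1, and the Raptor gene daf-15 (43.7, rank 1378). Each replicate's strongest 1446 peaks gave 4 genes of this list (16%), against 5.28% and 5.08% of coding genes, and the pooled list gave 18 (72.0%), against 24.9%. Final summits also lay in the bodies of let-363, the TOR kinase gene (78.0, rank 372), and gcn-1 (57.5, rank 754), and 147 bp past the 3′ end of rsks-1, the S6 kinase gene (47.5, rank 1155). Promoters of inf-1, the eIF4A gene, and egl-45, the eIF3 subunit a gene, had pooled ranks of 3545 and 4933, below most promoter peaks of the named eIF3 genes. Both genes had a stronger pooled summit past the 3′ end, with rank 1812 (44 bp past) at inf-1 and rank 3226 (155 bp past) at egl-45.

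The promoter share of the factors, 35.7% (exact 95% interval 21.6 to 52.0%), lay between those of ribosomal protein and aminoacyl-tRNA synthetase genes. Final promoter summits were found at 50 of 81 cytosolic ribosomal protein genes (61.7%, 50.3 to 72.3%), with 47 in each replicate, and at 5 of 32 synthetase genes (15.6%, 5.28 to 32.8%), with 4.5 ± 0.707 (SD, n = 2) in the replicates. At the 3′ end the translation factors' 14.3% stood beside 11.1% of ribosomal protein genes (9 of 81) and 0 of 32 synthetase genes, where the exact 95% upper limit is 10.9%. No test was made between these lists, and the promoter interval of the factors overlapped that of each of the others.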

How the data were processed

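Peak lists of 2 biological replicates (1 group) were analysed on ce11. Per the labels and the deposited description files, peak calling by the authors covered each replicate and the combined replicates, against a control alignment, and thresholded the final list by the irreproducible discovery rate at the optimal setting. The deposited signal value of each peak comes from the authors' caller, on a scale that is not stated. The sources used here give no caller, aligner, threshold or depth, so no interval on a signal was computed. The control library and the ce10 lists were not used here. The 4 lists held 1446 (final), 15675 (pooled), 26798 and 25463 peaks, with signals of 42.7 to 515, 16.1 to 515, 6.21 to 249 and 7.77 to 266, mostly 356 to 364 bp wide.

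Summits were placed in windows around genes of Ensembl release 115 (WBcel235) with Python 3.11.15, pandas 2.3.3, numpy 2.4.6, SciPy 1.17.1 (exact Clopper-Pearson intervals) and Biopython 1.88 (alignment of coding sequences), and plotted with Matplotlib 3.10.9. The promoter-window counting was tested on simulated summits placed at known distances from the members' 5′ ends, and the other counts were not tested in this way. With 1 group there was no condition to compare and no p-value was computed. Counts stand beside the share of all coding genes, with the replicates' 1446 strongest peaks as the spread. Biological replicates are the submitters' term, and the sources do not say how cultures were kept separate. All members with a final summit were named with values, and the others by pooled rank or as having none. The members, gene lists and motifs were chosen with earlier results of these data known. Alternatives were a smaller window, stronger peaks, nearest gene, unshared windows, peak overlap, all transcript starts and each replicate alone.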

Additional observations from a re-analysis of the deposited data

How the results depend on the processing

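A count was taken as moved when it differed by more than 1.5 times, and the median position when it shifted by at least 1 SD between replicates. By these limits 10 of 42 recomputed values moved. Counts cannot reverse. Only the median position could change sign, within a window that lies mostly upstream, and it did not. The promoter count of 15 genes fell to 5 when summits in the window of 1 coding gene only were counted. With the upper 50% of final peaks by signal, the count over all regions went from 19 to 11, the gene body count from 3 to 1 and the count of related genes from 5 to 2. The related genes also gave 2 in windows of 1 coding gene only. Counting any peak overlap of at least 1 bp raised the gene body count to 12, since a peak that straddles a gene's edge then counts. The median summit position of -228 bp was -208 bp in the window of 500 bp upstream to 100 bp downstream, -257 bp in the upper 50% of peaks, and between -253 and -239 bp when either replicate was left out. With either replicate left out, the promoter count was 11 to 16, the count over all regions 15 to 20 and the 3′ end count 6. The promoter count was 13 in the smaller window and 15 with peak overlap or all transcript starts. Depth is unknown, so a member without a peak cannot be called unbound, and a fixed peak width gives no extent. No paired analysis was possible because there is 1 group.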
